A study of Mus musculus with 25 samples.

Results

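The 10 genes described here encode Polycomb repressive complex 2 (PRC2): the catalytic subunits Ezh1 and Ezh2, the core subunits Eed and Suz12, the histone-binding proteins Rbbp4 and Rbbp7, and the accessory subunits Jarid2, Aebp2, Mtf2 and Phf19. They were taken by name, and all 10 were found among the 35731 genes of the mouse embryonic stem cell (mESC) RNA table and among the 24062 genes of the embryo RNA table. They were selected on the embryo counts of Jarid2, which were lower in both inhibitor-treated pools, so the embryo values of the 10 genes are given as a description without a test. The rule used no value of the mESC RNA or of the peaks, although earlier results of these data were known when the genes were chosen.

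The series measured RNA and H3K79 methylation where Dot1L, the methyltransferase for lysine 79 of histone H3, was lost or inhibited. The mESCs were of the v6.5 line, derived from a hybrid of C57BL/6 and 129 mice; 3 wild-type (WT) and 2 Dot1L knockout (KO) RNA libraries were made from untreated cells. ChIP-seq of H3K79me2 (antibody ab3594) and H3K79me3 (antibody ab2621) gave 2 WT and 2 KO peak lists per mark. Embryos from a cross of B6D2F1 and Cast/EiJ mice were collected at the 8-cell stage, 56 hours after fertilization, in 2 pools given DMSO and 2 pools given the Dot1L inhibitor SGC0946, with 30 to 35 embryos in a pool. The sources used here do not give the deleted part of Dot1l, the number of KO clones, or the dose of SGC0946 and the hours of exposure. They also do not say whether libraries of 1 group came from separate cultures, so p-values measure only the spread between these libraries. Pooled embryos and cultured cells are bulk samples, in which fewer cells of a type and less RNA per cell cannot be told apart.

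PRC2 methylates lysine 27 of histone H3, a mark of silenced developmental genes in stem cells and embryos. Ezh2 and its less active relative Ezh1 carry the methyltransferase domain, Suz12 is the scaffold, and Eed binds methylated lysine 27 and stimulates the enzyme. The complex occurs in alternative forms: Jarid2 and Aebp2 mark PRC2.2, and the Polycomb-like proteins Mtf2, Phf19 and Phf1 mark PRC2.1, which binds unmethylated CG-rich DNA. Jarid2 helps to recruit PRC2 to its targets in mESCs and can stimulate its activity.

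Total counts ran from 26860527 to 33755064 estimated counts in the mESC libraries and from 24950199 to 32479590 counts in the embryo libraries. Levels are given as CPM, counts scaled to a common library size with TMM factors. They are not corrected for gene length and are compared between libraries, not between genes. Dot1l itself had 104, 96.9 and 99.2 CPM in the WT libraries and 81.4 and 71.5 CPM in the KO libraries, a log2 fold change of -0.39 (SE 0.059); since the deleted part is not given, this value does not check the labels, but the KO peak lists held 12 to 328 peaks per list against 7338 to 66834 in WT. All 9 markers of pluripotent cells were detected in mESCs, and their summed level was 4597 to 4654 CPM in WT and 4099 to 4263 CPM in KO. Both KO libraries lay below all WT libraries in 6 of these markers and above them in 2, Tdgf1 and Utf1. Of all tested genes 30.7% and 31.8% did so. Summed over 7 primitive endoderm markers, CPM was 19.8 to 21.8 in WT and 46.1 to 52.2 in KO. The following sums leave out markers that did not pass the filter on low counts. They were 152 to 195 and 195 to 243 CPM for 6 of 7 feeder fibroblast markers. For 4 of 5 neural markers they were 116 to 123 and 84.9 to 93.5 CPM, mostly Tubb3. Tubb3 (log2 fold change -0.44), Pax6 (-0.55) and Sox1 (-0.07) were below 0 in KO and Neurog1 (1.69) above. The part of all these markers in the results on the PRC2 genes was not tested.

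Of the 10 genes, Jarid2 has the most bases under H3K79me2 peaks, Mtf2 the widest H3K79me3 by percentage of the gene, and Phf19 no peak. The 250 bases before the annotated start sites of Jarid2, Mtf2 and Phf19 are shown first. They are RefSeq sequences of GRCm38.p6, printed 5′ to 3′ on the strand of the gene, with each CG in capitals. Jarid2 has 2 listed start sites: the outer window is chr13:44730524-44730773 and the inner window chr13:44731021-44731270, both on the plus strand. Mtf2 also has 2: the outer window is chr5:108065424-108065673 and the inner window chr5:108077915-108078164, both on the plus strand. The window of Phf19 is chr2:34913977-34914226 on the minus strand.
Jarid2 outer: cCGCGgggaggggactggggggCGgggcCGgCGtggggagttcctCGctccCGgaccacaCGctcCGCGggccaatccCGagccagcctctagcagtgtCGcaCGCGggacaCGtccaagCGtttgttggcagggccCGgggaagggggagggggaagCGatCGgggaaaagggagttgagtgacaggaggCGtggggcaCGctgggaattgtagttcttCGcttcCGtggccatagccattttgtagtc
Jarid2 inner: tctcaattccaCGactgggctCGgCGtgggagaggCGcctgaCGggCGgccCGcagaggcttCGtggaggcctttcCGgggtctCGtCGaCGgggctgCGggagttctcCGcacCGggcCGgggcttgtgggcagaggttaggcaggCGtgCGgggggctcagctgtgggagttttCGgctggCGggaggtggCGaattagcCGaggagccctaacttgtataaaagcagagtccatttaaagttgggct
Mtf2 outer: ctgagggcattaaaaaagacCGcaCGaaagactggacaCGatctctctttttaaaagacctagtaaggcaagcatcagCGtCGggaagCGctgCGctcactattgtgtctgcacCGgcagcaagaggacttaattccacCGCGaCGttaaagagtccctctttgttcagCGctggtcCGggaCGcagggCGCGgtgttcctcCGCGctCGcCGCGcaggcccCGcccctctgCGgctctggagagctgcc
Mtf2 inner: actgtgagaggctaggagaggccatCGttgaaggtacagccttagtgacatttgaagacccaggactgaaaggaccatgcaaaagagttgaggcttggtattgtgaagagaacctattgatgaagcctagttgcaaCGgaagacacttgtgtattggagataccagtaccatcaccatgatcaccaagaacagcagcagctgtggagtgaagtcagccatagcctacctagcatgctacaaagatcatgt
Phf19: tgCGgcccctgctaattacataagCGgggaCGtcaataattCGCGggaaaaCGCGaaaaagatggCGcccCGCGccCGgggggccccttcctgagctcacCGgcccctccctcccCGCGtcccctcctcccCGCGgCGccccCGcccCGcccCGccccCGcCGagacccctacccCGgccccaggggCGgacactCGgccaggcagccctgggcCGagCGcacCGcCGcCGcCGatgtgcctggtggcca
The outer and inner windows of Jarid2 hold 23 and 22 CG dinucleotides, against a median of 6 over 32851 listed mouse promoter windows of the same length, of which 13.3% hold 23 or more. Phf19 holds 31, and 5.19% of all windows hold as many. The outer Mtf2 window holds 23 and the inner one 2. The motif TATAAA, searched on both strands, was found in 1 of the 14 windows listed for the 10 genes, that of the inner Jarid2 start, at positions -31 to -26 from the start; 12.4% of all windows hold it.

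In WT mESCs, 9 of the 10 genes carried H3K79me2 and 7 carried H3K79me3, counted where a gene body overlapped a peak of both WT lists. Of the 18544 genes tested for RNA that could be placed on the genome, 44.4% carried H3K79me2 and 11.2% carried H3K79me3. H3K79 methylation covers the bodies of transcribed genes: over 5 groups of genes from the lowest to the highest WT RNA level, 3.32%, 8.09%, 37.7%, 78.4% and 94.3% carried H3K79me2, and 2.35%, 4.1%, 5.02%, 8.95% and 35.8% carried H3K79me3. The highest group holds 8 of the 10 PRC2 genes. Phf19 carried neither mark; it lies in the middle expression group. Ezh1, in the next group up, had H3K79me2 and no H3K79me3 peak, and Ezh2 had an H3K79me3 peak only in the first list. None of the 10 genes overlapped a peak in any of the 4 KO lists, where 0.108% of all genes overlapped an H3K79me2 peak and 0.976% an H3K79me3 peak.

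Jarid2 stood apart in the length of its H3K79me2 domain. Its gene body is 190870 bp long (chr13:44730774-44921643), and 42 peaks in each WT list covered 158096 bp in the first list and 149307 bp in the second, which is 82.8% and 78.2% of the gene. No other of the 18544 genes had more bases under H3K79me2 peaks in either list. The rank by bases depends on gene length; of the 2238 genes of at least 100 kb only 2 in the first list and 4 in the second had a higher covered percentage. The longest single peak ran over 51254 bp in the first list (chr13:44731414-44782667), where 4 of 66834 peaks were longer, and over 69515 bp in the second (chr13:44731574-44801088), where none of 64084 was longer; the median peak was 498 and 503 bp. The authors' peak enrichment reached 17.7-fold in the first list and 11.9-fold in the second.

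H3K79me3 on Jarid2 was concentrated toward the start. Its 52 peaks in the first list covered 28786 bp, or 15.1% of the gene, and its 25 peaks in the second covered 14354 bp, or 7.52%. Within the first 5 kb from the outer start, 74.9% and 74.6% of the bases lay under H3K79me3 peaks, and 87.2% and 84.0% under H3K79me2 peaks. No gene had more bases under H3K79me3 in the first list, and 4 genes did in the second. The 2 H3K79me3 lists differ in size, with 19800 and 7338 peaks.

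**Figure D1:**
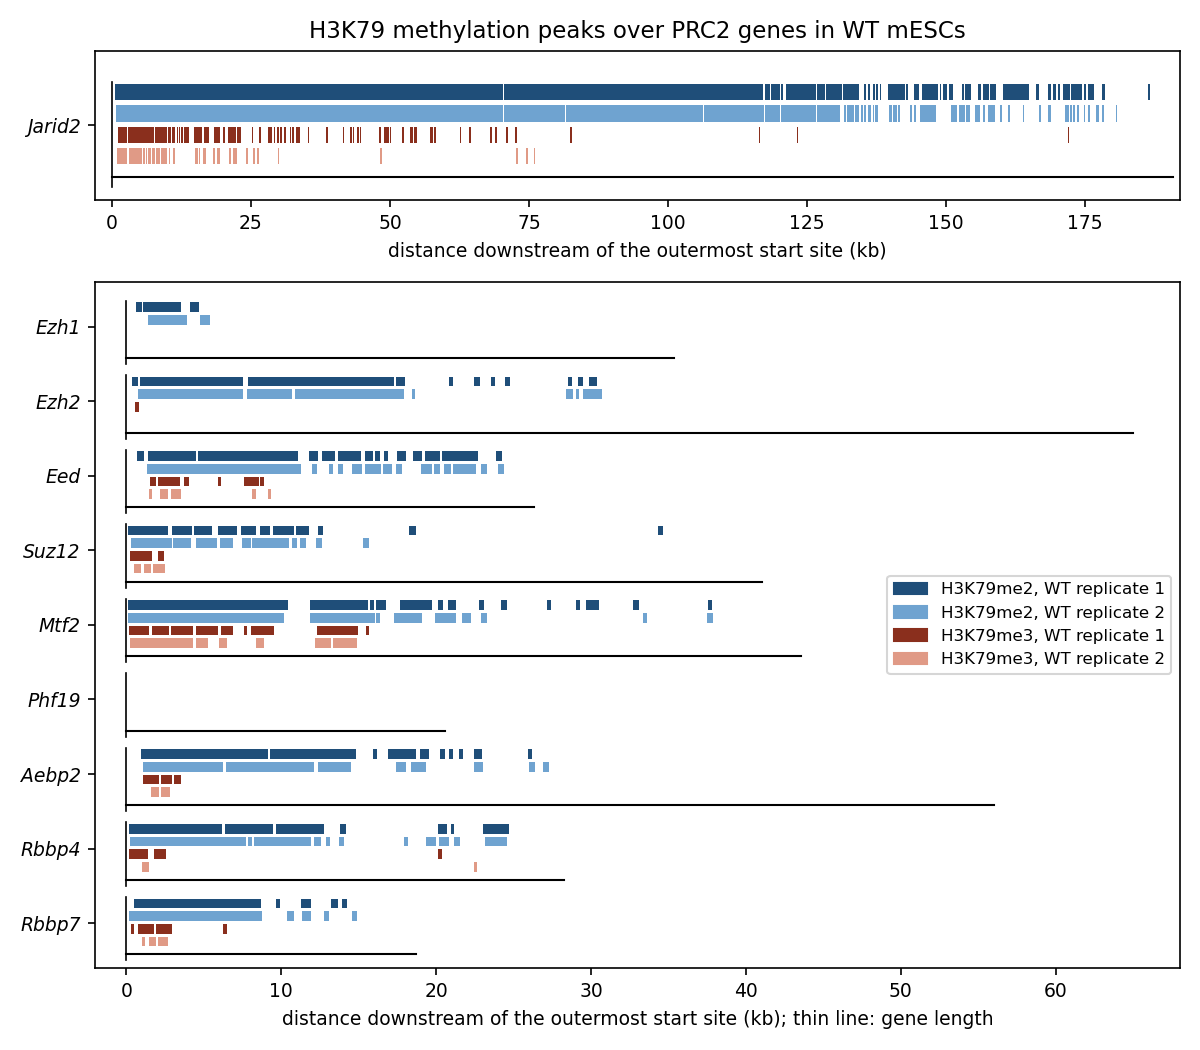
Positions of WT H3K79me2 peaks (blue) and H3K79me3 peaks (red), for 2 WT replicates each, along Jarid2 (top, 190870 bp) and the other 9 PRC2 genes (bottom); the horizontal axis is the distance in kb downstream of the outermost start site and the thin line is the gene. H3K79me2 covers 82.8% and 78.2% of Jarid2, in the other marked genes the first peak begins 108 to 1425 bp from the start, and Phf19 has no peak.

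Among the catalytic subunits, Ezh1 was the least marked gene with H3K79me2: 9.42% and 8.86% of its body was covered, with enrichments of 4.15-fold and 4.39-fold. Coverage of Ezh2 was 29.8% and 29.1%. Of the core subunits, Eed had 71.6% and 65.5% of its body covered and Suz12 had 27.03% and 25.6%. Both carried H3K79me3 over a smaller part, 13.4% and 6.84% of Eed and 4.38% and 4.02% of Suz12.

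Mtf2, the accessory subunit of PRC2.1, had the widest H3K79me3 of the 10 genes by percentage, 24.0% and 19.3% of its body, with 47.1% and 44.3% under H3K79me2. Its H3K79me3 peaks covered 85.1% and 91.1% of the first 5 kb, and a further group lay around the inner start printed above, whose window overlapped peaks of both marks in both lists. Aebp2, the partner of Jarid2 in PRC2.2, had 32.1% and 28.5% under H3K79me2 and 3.95% and 1.98% under H3K79me3. The histone-binding genes Rbbp4 (53.2% and 56.2%) and Rbbp7 (53.0% and 54.9%) were covered by H3K79me2 over a similar part of their bodies. Over Rbbp4, H3K79me3 covered 7.86% and 2.27%, and over Rbbp7 13.5% and 7.23%.

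In all 9 marked genes the first H3K79me2 peak began downstream of the outermost start site, by 108 bp in Mtf2 to 1425 bp in Ezh1 over the 2 lists. None of the 9 outermost start bases lay inside a peak, which was also the case for nearly all marked genes: 1.31% of 6548 genes with H3K79me2 and a listed start site had it inside a peak of both lists. Both printed Jarid2 windows lay outside the peaks; the first H3K79me2 peaks began 640 and 800 bp from the outer start, downstream of the inner start. Of the internal starts, the windows of 2 inner Aebp2 starts and of the inner Mtf2 start overlapped H3K79me2 peaks in both lists, as did 2.24% of all 32851 windows. That share takes in the windows of marked and unmarked genes, so it is no background for starts inside marked gene bodies.

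In Dot1L KO mESCs, Ezh1, Ezh2 and Rbbp4 rose and Rbbp7 and Jarid2 fell, with the largest change in Rbbp7. The test was edgeR's quasi-likelihood test with Benjamini-Hochberg adjustment over 19532 genes, of which 43.9% passed an adjusted p of 0.05, 22.3% higher and 21.6% lower, and 50.6% had an unadjusted p under 0.05. Against this background 5 of 10 PRC2 genes passed, 3 higher and 2 lower, with a median log2 fold change of -0.05 against 0.00078 for all tested genes. In 3 genes both KO libraries lay above all WT libraries and in 3 below, where 31.8% and 30.7% of all tested genes did so. All 10 passed the filter on low counts. With upper-quartile scaling, 63.5% of the calls over all genes were higher, against 50.8% with TMM.

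Both catalytic subunits were higher in KO cells. Ezh1 had 46.5, 44.4 and 45.0 CPM in the WT libraries and 62.1 and 54.9 CPM in the KO libraries. Both KO libraries lay above all 3 WT libraries, and the log2 fold change was 0.37 (SE 0.057, edgeR adjusted p = 2.0e-04). Ezh2 had 196, 201 and 197 CPM in WT and 231 and 226 CPM in KO. Its groups were also separate, and the log2 fold change was 0.21 (SE 0.039, edgeR adjusted p = 8.4e-04). Ezh1 and Ezh2 passed the threshold under all 13 alternatives tried.

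Jarid2 had 828, 830.3 and 834 CPM in WT and 739 and 798 CPM in KO. The 3 WT libraries were close together, while the KO libraries, both below them, differed from each other by more than the second KO library differed from WT. The log2 fold change was -0.11 (SE 0.039, edgeR adjusted p = 0.032), a mean of 831 ± 3.16 CPM (SD, n = 3) against 768 ± 41.6 CPM (SD, n = 2). This call was near the threshold: the edgeR adjusted p was 0.104, 0.108 or 0.127 without WT library 1, 2 or 3 and 0.111 without KO library 1. The log2 fold change was -0.060 without KO library 1, -0.17 without KO library 2 and -0.046 with upper-quartile scaling. Over all alternatives the adjusted p ran from 2.3e-04 to 0.343, with upper-quartile scaling the highest. Fitted with the replicate number as a block it was 0.053.

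Of the accessory genes among the 10, Aebp2, Mtf2 and Phf19 did not pass the threshold. Aebp2 had 140, 143 and 144 CPM in WT and 134 and 141 CPM in KO; the groups overlapped, and the log2 fold change was -0.04 (SE 0.043). Mtf2 had 466, 492 and 483 CPM in WT and 472 and 496 CPM in KO, again overlapping, and its log2 fold change was 0.010 (SE 0.040). Phf19, the gene without H3K79 methylation peaks, had the lowest counts, 327 to 429 in WT and 299 to 320 in KO. Its KO libraries, at 10.5 and 10.4 CPM, lay below the WT libraries at 12.0, 13.2 and 11.4 CPM, with a log2 fold change of -0.22 (SE 0.089, edgeR adjusted p = 0.059); this was 0.030 with the replicate block and 0.046 without WT library 3.

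The core subunits Eed and Suz12 each had 1 KO library at the WT level and 1 below it. Eed had 98.7, 98.7 and 96.3 CPM in WT and 85.8 and 98.7 CPM in KO (log2 fold change -0.08, SE 0.057, edgeR adjusted p = 0.25). Suz12 had 423, 413 and 409 CPM in WT and 382 and 413 CPM in KO (log2 fold change -0.06, SE 0.041, edgeR adjusted p = 0.25). Without KO library 2 both passed, at an edgeR adjusted p of 0.0057 for Eed and 0.011 for Suz12, which then rests on KO library 1 alone. KO library 1 was the lowest of the 5 libraries for 5 of the 10 PRC2 genes and for 28.3% of all tested genes.

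The histone-binding subunits, which also belong to other chromatin complexes such as NuRD, moved in opposite directions. Rbbp7 had 483, 503 and 485 CPM in WT and 287 and 311 CPM in KO. This was the largest change among the 10 genes, a log2 fold change of -0.71 (SE 0.043, edgeR adjusted p = 4.6e-08) or 0.610 times the WT level, and it passed under all 12 alternatives that could be fitted. Rbbp4 had 384, 376 and 372 CPM in WT and 404 and 408 CPM in KO, with separate groups. Its log2 fold change was 0.11 (SE 0.036, edgeR adjusted p = 0.030), and the adjusted p ran from 0.0013 to 0.14 over the alternatives. Rbbp4 no longer passed without WT library 1 (0.059), 2 (0.11) or 3 (0.14), without a filter on low counts (0.058), with the replicate block (0.099) and with autosomal genes only (0.051). Without WT library 1 or WT library 2, 3 of the 10 genes passed, where 7491 of 19406 and 7179 of 19368 tested genes did so.

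Rbbp7 is the only one of the 10 genes on the X chromosome (chrX:162760372-162779090), and X-linked genes were lower in the KO libraries as a whole. Of the 596 X-linked genes at a mean of 1 CPM or more, 88.4% had a log2 fold change below 0, with a median of -0.65 and quartiles of -0.93 and -0.27. The 15286 autosomal genes had a median of 0.0054, with 49.2% below 0. Rbbp7 lay at -0.06 from the X median, and 44.6% of X-linked genes had a lower value. With autosomal genes only, an alternative that leaves out Rbbp7, 3 PRC2 genes passed: Jarid2, Ezh1 and Ezh2. Whether the lower level of X-linked genes accounts for that of Rbbp7 was not tested.

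**Figure D2:**
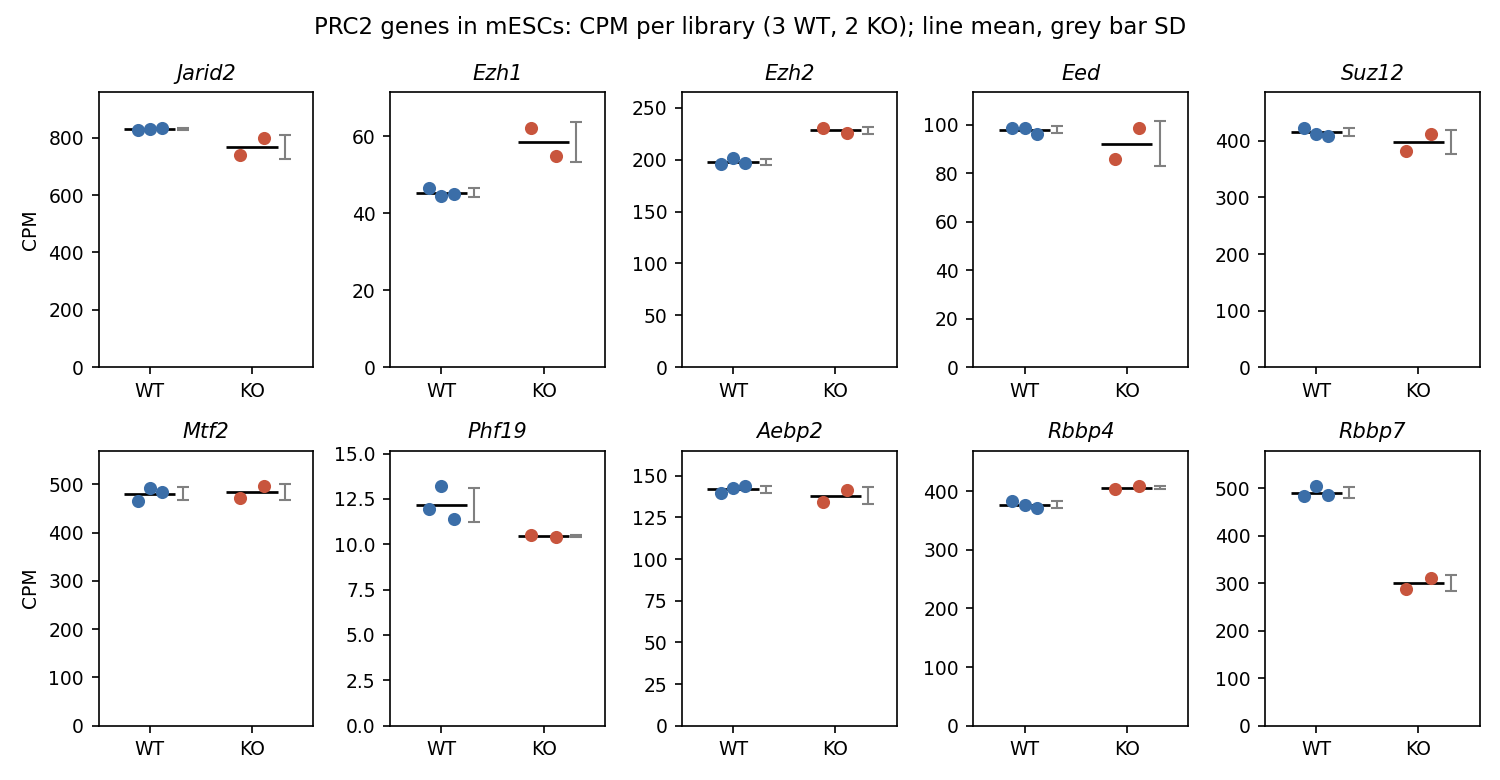
CPM of the 10 PRC2 genes in each mESC library, 3 WT (blue) and 2 KO (red); each panel has its own axis from 0, black lines are means and grey bars are SD. Rbbp7 falls from 483 to 503 CPM in WT to 287 and 311 CPM in KO, and Ezh1 and Ezh2 are higher in both KO libraries.

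In the 8-cell embryos the lower level of Jarid2 was the value that led to this set of genes. Jarid2 had 1030.0 and 844 CPM in the DMSO pools and 443 and 634 CPM in the SGC0946 pools, from 27962, 22387, 11628 and 20836 counts. Both treated pools lay below both DMSO pools and pools of the same treatment also differed from each other. The log2 fold change was -0.80 (SE 0.156), or 0.575 times the DMSO level, and lay between -1.08 and -0.56 when 1 pool was left out. Among the 14351 genes tested, 7.36% had a lower log2 fold change, a description only, since this value chose the genes.

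Over all genes, edgeR's quasi-likelihood test called none of 14351 in the embryos (0%), and 1169 (8.15%) had an unadjusted p under 0.05; DESeq2 called 126 and limma-voom 55. Without regard to a test, 3 PRC2 genes were lower in both treated pools than in both DMSO pools and 1 was higher, where 19.2% and 20.1% of all tested genes did so. The 3 lower genes were Jarid2, Suz12 and Rbbp4, and the higher one was Ezh1. Jarid2 is among them by the choice of genes, so nothing is read from this count. The median log2 fold change of the 10 genes was -0.07, against 0.015 for all tested genes.

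Ezh1 had 25.2 and 26.1 CPM in the DMSO pools and 48.2 and 31.1 CPM in the SGC0946 pools, a log2 fold change of 0.63 (SE 0.265). Much of this came from the first treated pool, without which the log2 fold change was 0.28. Ezh2, by contrast, had overlapping groups, with 252 and 254 CPM in DMSO and 222 and 261 CPM in SGC0946 and a log2 fold change of -0.07 (SE 0.135). The scaffold gene Suz12 had 689 and 745 CPM in DMSO and 638 and 624 CPM in SGC0946, so that the treated pools lay below, with a log2 fold change of -0.18 (SE 0.111). Eed overlapped, at 131 and 119 CPM in DMSO and 107 and 134 CPM in SGC0946 (log2 fold change -0.05, SE 0.165).

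The other accessory subunits did not share the separation seen for Jarid2. Aebp2 had 370.3 and 339 CPM in DMSO and 278 and 348 CPM in SGC0946, and Mtf2 had 376 in both DMSO pools and 330 and 386 CPM in SGC0946, with log2 fold changes of -0.18 (SE 0.138) and -0.07 (SE 0.126). Phf19 was scarcely counted, with 23, 43, 81 and 46 counts in the 4 pools, and its log2 fold change of 0.86 had an SE of 1.03. Rbbp4 had 199 and 210.3 CPM in DMSO and 187 and 194 CPM in SGC0946, a log2 fold change of -0.10 (SE 0.134). Rbbp7, the gene with the largest change in KO mESCs, had 478 and 548 CPM in DMSO and 512 and 518 CPM in SGC0946, with a log2 fold change of 0.0057 (SE 0.119).

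SGC0946 pool 1 was the lowest of the 4 pools for 6 of the 10 genes and the highest for 2, where it was lowest for 29.5% and highest for 30.2% of all tested genes. Summed over 7 markers of 8-cell embryos, CPM was 2146 to 2233 in the DMSO pools and 1594 to 1854 in the SGC0946 pools. For 9 pluripotency markers the sums were 1649 to 1742 and 1139 to 1306 CPM. For 6 oocyte markers they were 77.3 to 82.0 and 74.8 to 80.9 CPM. For the 5 of 7 primitive endoderm markers that passed the low-count filter they were 414 to 438 and 379 to 418 CPM. Of the cumulus cell markers Ptx3 and Fshr were at 0 in all pools. The 2 of 7 that passed the filter, Amh and Amhr2, summed to 41.0 to 44.8 and 37.7 to 38.0 CPM, mostly Amhr2. Col3a1, Lum and Dcn of the fibroblast markers were at 0 too. The 2 of 7 that passed, Col1a1 and Postn, summed to 1.66 to 2.71 and 0.343 to 2.13 CPM. Neurog1 of the neural markers was also at 0. The 3 of 5 that passed summed to 53.0 to 53.7 and 58.4 to 63.8 CPM, mostly Pax6. The 8-cell and pluripotency lists both hold Pou5f1 and Nanog, so their sums are not separate. Both SGC0946 pools lay below both DMSO pools in 4 of the 7 8-cell markers and in 7 of the 9 pluripotency markers. The rest of these markers overlapped, and of all tested genes 19.2% were lower in this way. The lower sums of these markers go with the lower Jarid2, and their part in it was not tested.

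**Figure D3:**
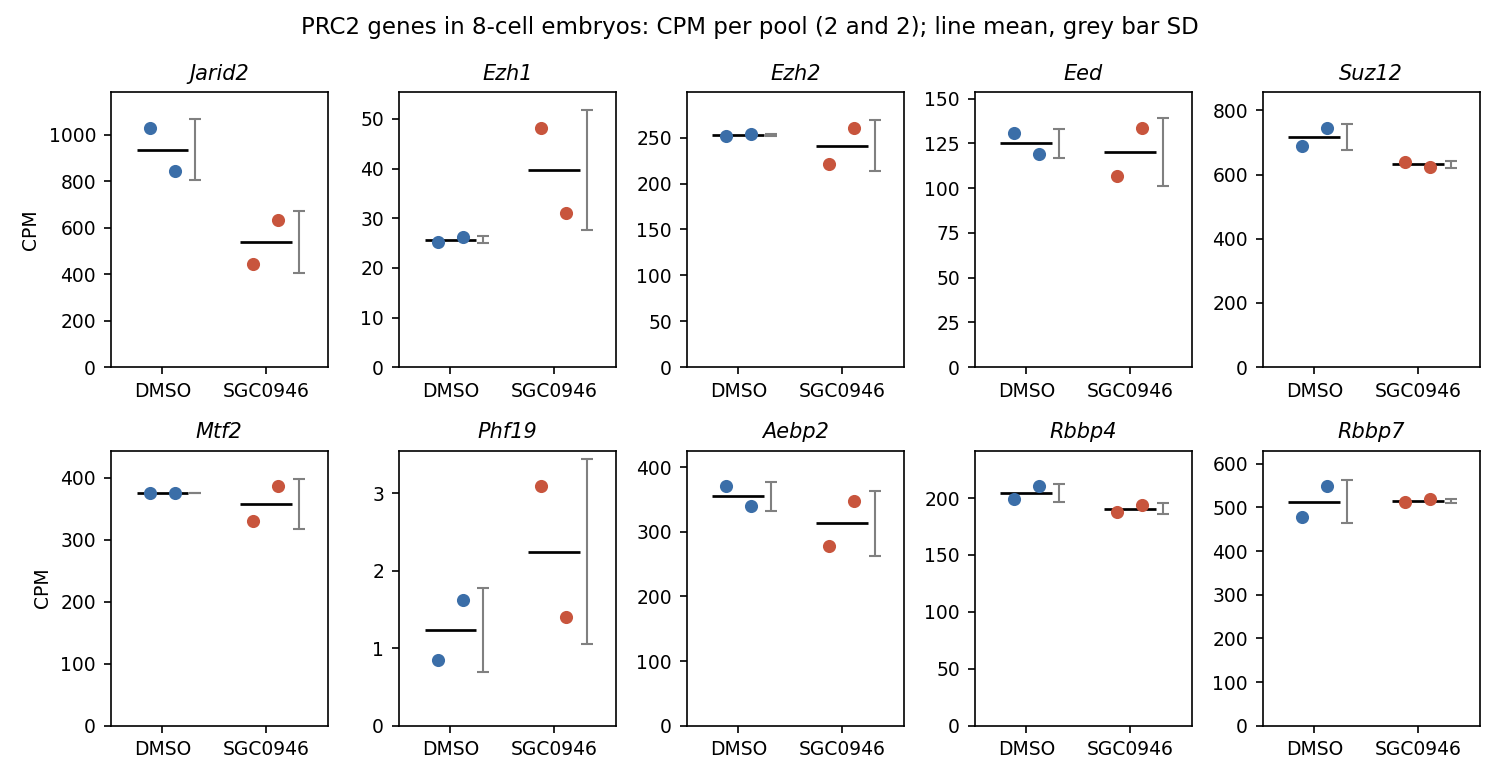
CPM of the 10 PRC2 genes in each pool of 8-cell embryos, 2 DMSO (blue) and 2 SGC0946 (red); each panel has its own axis from 0, black lines are means and grey bars are SD. Jarid2 is at 1030.0 and 844 CPM in DMSO and at 443 and 634 CPM in SGC0946, while Rbbp7 and Ezh2 overlap between groups.

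Set side by side, the mESC and embryo values of the same gene come from separately normalized tables, and the difference between them was not tested. Ezh1 was higher in both, with log2 fold changes of 0.37 and 0.63. Jarid2 was at -0.11 and -0.80, but its embryo value chose the genes and its mESC call was near the threshold. Eed, Suz12 and Aebp2 were also below 0 in both, without a call in either. Mtf2, Phf19 and Rbbp4 had opposite signs in mESCs and embryos. Ezh2, which rose by 0.21 on the log2 scale in KO cells, was at -0.07 in the embryos. Rbbp7 was at -0.71 in KO cells and 0.0057 in the embryos.

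**Figure D4:**
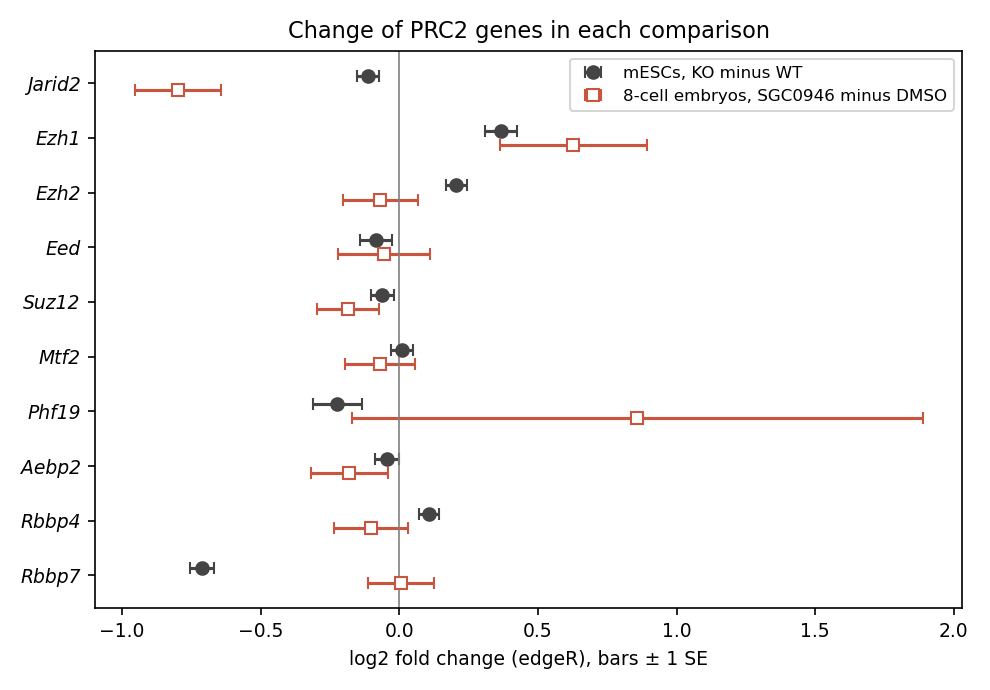
Log2 fold changes of the 10 PRC2 genes with bars of 1 SE, for KO against WT mESCs (filled circles) and SGC0946 against DMSO embryos (open squares). Jarid2 is lowest in the embryos (-0.80) and Rbbp7 in the mESCs (-0.71), and the bar of Phf19 in the embryos is the widest (SE 1.03).

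Profiles over the 9 RNA libraries were compared as log2 CPM, each gene centred separately within the mESC and within the embryo libraries. The genes that ran most like Jarid2 were Mgme1, Ptges3l, Vps28, Cox10 and Chmp1b. Their Euclidean distances were 0.184, 0.203, 0.210, 0.239 and 0.248 against a median of 1.22 over 12364 genes. Their embryo log2 fold changes were -0.73, -0.72, -0.70, -0.62 and -0.71, and their mESC values ran from -0.23 for Cox10 to 0.014 for Vps28. The embryo pools enter the distance, so the similar embryo values and the short distances follow from how these genes were picked. Of the PRC2 genes, Aebp2 was nearest at 0.656, ranked 768, and Phf19 farthest at 2.15.

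The PRC2 genes were set beside 38 other genes of Polycomb biology, of which 24 passed in KO mESCs, 9 higher and 15 lower, with a median log2 fold change of -0.06; over all tested genes 43.9% passed, 22.3% higher and 21.6% lower. Of the 4 other accessory subunits of PRC2, Phf1, the third Polycomb-like gene, rose (log2 fold change 0.40, SE 0.127, edgeR adjusted p = 0.021), and Epop (-0.77, SE 0.070) and Lcor (-0.80, SE 0.054), both of PRC2.1, fell. Ezhip, an inhibitor of PRC2, had a log2 fold change of -0.04. Among the 13 core and canonical genes of PRC1, the complex that binds H3K27me3 through its chromobox subunits and ubiquitinates histone H2A, 4 rose and 4 fell. In variant PRC1, 2 of 15 rose and 6 fell, and of the 6 H3K27 demethylase and H2A deubiquitinase genes 2 rose and 3 fell.

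Among the machinery genes that rose most were Asxl3, a cofactor of the H2A deubiquitinase (4.80 ± 1.01 CPM in WT, SD, n = 3, and 8.34 ± 1.95 CPM in KO, SD, n = 2) and the variant PRC1 subunit Pcgf5 (21.0 ± 1.04 and 33.8 ± 1.54 CPM). Their log2 fold changes were 0.79 and 0.68, with edgeR adjusted p-values of 0.0023 and 1.8e-06. The largest falls were those of Kdm6a, an H3K27 demethylase (254 ± 2.96 and 107 ± 8.72 CPM), Bcor, a subunit of variant PRC1 (92.3 ± 2.70 and 42.4 ± 0.268 CPM), and Bmi1, a canonical PRC1 subunit (13.4 ± 0.720 and 6.64 ± 1.05 CPM). These fell by 1.25, 1.12 and 1.01 on the log2 scale, with edgeR adjusted p-values of 1.5e-09, 2.5e-09 and 6.6e-06. Kdm6a and Bcor are X-linked like Rbbp7. Of the 4 X-linked machinery genes 2 fell and none rose, and of the 34 on the autosomes 13 fell and 9 rose. Over all tested genes 21.6% passed as lower and 22.3% as higher. Whether X-linked and autosomal machinery genes differ was not tested.

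**Figure D5:**
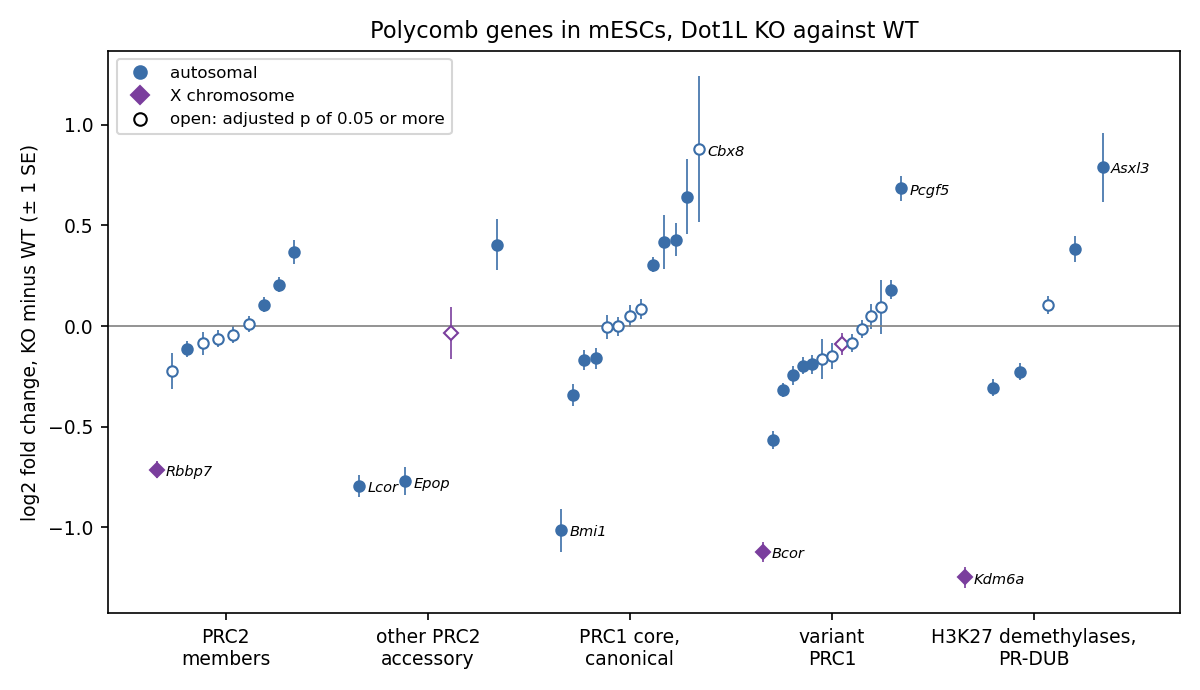
Log2 fold changes (KO minus WT mESCs, bars of 1 SE) of the PRC2 genes and 38 other Polycomb genes in groups; filled symbols passed an adjusted p of 0.05 in edgeR and diamonds are X-linked genes. Kdm6a (-1.25) and Bcor (-1.12), both X-linked, and the autosomal Bmi1 (-1.01) lie lowest.

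H3K79me2 was carried in both WT lists by 2 of 4 other PRC2 accessory genes, 9 of 13 canonical PRC1 genes, 13 of 15 variant PRC1 genes and 5 of 6 demethylase and deubiquitinase genes. Over all genes the share was 44.4%, and 78.4% and 94.3% in the 2 highest expression groups. Among the genes without it, Phf1, Pcgf5, Ring1 and Asxl3 rose in KO cells, Bmi1 fell, and Ezhip, Pcgf1 and Cbx8 did not pass. Of all tested genes 22.3% passed as higher and 21.6% as lower. Over all genes the median log2 fold change in KO cells was -0.05 for the 8230 genes with H3K79me2 and 0.11 for the 10314 without.

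In the embryos 36 of the 38 machinery genes could be tested, and 7 were higher and 8 lower in both SGC0946 pools than in both DMSO pools, near the 20.1% and 19.2% of all tested genes. Bcor, which fell in KO mESCs, had 64.5 and 63.2 CPM in the DMSO pools and 158 and 99.1 CPM in the SGC0946 pools. The embryo log2 fold change of Bcor was 1.01 (SE 0.208). Kdm6a, which also fell in KO mESCs, had 112 and 127 CPM in DMSO and 110 and 107 CPM in SGC0946 (log2 fold change -0.14, SE 0.158).

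Of 18 developmental genes known as PRC2 targets in mESCs, 16 could be tested in KO cells; 8 rose and 4 fell, with a median log2 fold change of 0.46, where 22.3% of all tested genes were higher and 21.6% lower. Levels are given for genes with a mean of 1 CPM or more over the WT and KO libraries together. Those that rose included the endoderm regulator Gata6 (0.669 ± 0.171 CPM in WT, SD, n = 3, and 3.83 ± 0.448 CPM in KO, SD, n = 2). Others were Hand1 of extraembryonic and heart development (0.834 ± 0.187 and 1.99 ± 0.0343 CPM) and the mesoderm gene T (2.08 ± 0.313 and 4.14 ± 0.442 CPM). The corresponding log2 fold changes were 2.50, 1.25 and 0.99, with edgeR adjusted p-values of 1.4e-06, 8.5e-04 and 4.6e-04. Gata6 and Hand1 were below 1 CPM in WT and reached this mean through the KO libraries. Sox17 and Neurog1, also among the 8 that rose, had 7 to 12 counts in WT and 25 to 35 in KO. Genes can pass the low-count filter through 1 group, so nothing is read from the counts of targets that rose or fell. Among the genes that fell were the neural regulator Olig2 and the cell cycle inhibitor gene Cdkn2a, which fell by 0.73 and 0.60 on the log2 scale (edgeR adjusted p = 6.0e-05 and 0.0012). Gata6, Gata4 and Sox17 also stand in the primitive endoderm list, in which 5 of 7 genes rose, so the 2 lists are not separate. None of the 16 carried H3K79me2 in both WT lists, and 2 carried H3K79me3, Sox1 among them. Over all genes the shares were 44.4% and 11.2%. In the 2 lowest expression groups 3.32% and 8.09% carried H3K79me2. In the embryos 12 of the 18 could be tested. Of these, 1 was higher and 1 lower in both treated pools than in both DMSO pools, where 20.1% and 19.2% of all tested genes were so. T, Foxa2, Nkx2-2 and Neurog1 were at 0 in all pools.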

How the data were processed

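RNA of 9 libraries (3 WT and 2 Dot1L KO mESC libraries, 2 DMSO and 2 SGC0946 embryo pools) and 8 ChIP peak lists were used; 8 input libraries of the 25 in the series were not. The mESC table holds estimated counts per gene made by the authors with kallisto, per the submitters' processing notes, which also name STAR and HTSeq for the KO libraries; ribosomal RNA was depleted before library preparation (KAPA RNA Hyperprep with RiboErase), per the labels. The embryo table holds counts of whole reads per gene as deposited by the authors, who used STAR and HTSeq per the processing notes, after the SMARTer Stranded Total RNA-seq v3 Pico kit, per the labels. Whether counting used strand is not given in the sources used here, so reads of Ezh2, Rbbp4 and Rbbp7 and of the genes that overlap their ends on the other strand cannot be told apart. The peak lists, on mm10, name Bowtie2 and MACS2 in the submitters' processing notes; the authors' deposited columns used are a score, a fold enrichment (a ratio over background) and the −log10 of the q-value per peak. Peaks were called per library.

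Estimated counts were rounded to whole numbers. Each RNA table was fitted separately with edgeR 4.0.16 in R 4.3.3 (filterByExpr, TMM, glmQLFit, glmQLFTest), with Benjamini-Hochberg adjustment over all tested genes and a threshold of 0.05; log2 fold changes and SE come from this fit, and a prior count of 2 was used for log2 CPM. The number of columns without a sample was 0. The fit was tested on simulated data. The depth per library, 24950199 to 33755064 counts, sets the counting error, and the spread between libraries was larger in the embryos (biological coefficient of variation 0.442) than in the mESCs (0.0467). Overlap of a gene body with a peak of both WT lists by 1 bp or more made a gene marked; positions and promoter windows are from RefSeq GRCm38.p6, the same assembly as mm10, and 5 expression groups of equal size were made from WT mESC levels.

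All 10 PRC2 genes are named. Of the other Polycomb machinery and of the PRC2 targets, taken separately, the named genes are called genes with a mean CPM of 1 or more. The mean is over the WT and KO libraries together, so a gene can reach it through 1 group. From these, the 3 with the largest rise and the 3 with the largest fall in KO mESCs were taken. Other genes were named after their values were seen, to spell out small counts. Some genes that this rule takes are not reported here. For Jarid2, the 5 genes nearest by profile are named. The members and lists were chosen with earlier results of these data known. Alternatives were other scalings (DESeq2 size factors, upper quartile), other tests (DESeq2 1.42.0, limma 3.58.1 with voom), other filters, a replicate block and each library left out; for peaks, each list alone, a −log10 q of at least 5, a flank of 2 kb and an overlap of at least 50%. Tables and figures were made with Python 3.11.15, pandas 2.3.3, numpy 2.4.6 and matplotlib 3.10.9. Same-numbered libraries did not deviate together, and the values of that check are given with the replicate block.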

Additional observations from a re-analysis of the deposited data

How the results depend on the processing

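Over all alternatives, 271 values kept their direction and side of the threshold (or moved by less than the spread), 13 lost and 4 gained the threshold, 16 values without a test or counts moved further, and 6 changed sign in KO mESCs. The sign changed there only for genes that did not pass: Suz12 (0.0052) and Aebp2 (0.024) with upper-quartile scaling, Mtf2 without a filter on low counts (-5.0e-05), without WT library 1 (-0.0096) and without KO library 2 (-0.028), and Eed without KO library 1 (0.011). With 1 library left out, the log2 fold change ran from -0.028 to 0.044 for Mtf2 and from -0.19 to 0.011 for Eed. The number of PRC2 genes that passed, 5, was 3 with autosomal genes only, an alternative chosen after seeing the data. It was 3 or 4 when 1 WT library was left out. Over all genes 8572 of 19532 passed in the main fit and 8045 of 18816 with autosomal genes only. Without WT library 1, 2 or 3 the numbers were 7491 of 19406, 7179 of 19368 and 7220 of 19381. Where 1 library was left in a group, its spread was taken from the other group.

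In the embryos no gene was called by edgeR, but 126 were with DESeq2, 55 with limma-voom, 111 without a filter, 23 with at least 10 counts in every library, 171 with the replicate block, and 4 to 365 with 1 pool left out, the highest without SGC0946 pool 2; the cause was not tested. The log2 fold change of Jarid2 there was -0.81 with the replicate block. With 1 pool left out, 6 embryo values of 4 genes with overlapping groups also changed sign by less than the spread: Eed (0.0099 and 0.10), Ezh2 (0.048), Mtf2 (0.043) and Rbbp7 (-0.091 and -0.0019). Labels do not say that replicate numbers mark a shared batch, and deviations of same-numbered libraries correlated at 0.00685 and -0.026 in mESCs and 0.0524 in embryos. In mESCs the block gave 8160 calls over all genes, ended those of Jarid2 (0.053) and Rbbp4 (0.099), and added Phf19 (0.030). With the first H3K79me3 list alone 8 genes were marked in place of 7. Phf19, at 23 to 81 counts per embryo pool, is limited by depth.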
